A study of Mus musculus with 10 samples.

Results

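The RNA levels of 9 genes of glutamine transport and metabolism, *Slc1a5*, *Slc7a5*, *Slc38a1*, *Slc38a2*, *Glul*, *Glud1*, *Got1*, *Got2* and *Gpt2*, were examined in 10 mouse cutaneous squamous cell carcinomas. The genes were taken by their symbol from the 35275 genes listed for every tumor, and all 9 were found in all 10 tumors with 1 row each. The question was whether tumors without *Ldha*, the gene of the lactate dehydrogenase subunit that makes lactate from pyruvate, carried more or less RNA of the genes that bring in and use glutamine, a carbon source that could take the place of glucose. Of the 10 tumors, 5 were labelled LDHA-/- (*Ldha*-null below) and 5 were labelled Wild type, each from a different mouse by the series description, while the text of the study gives 6 and 6. In the study, tumors arose from hair follicle stem cells after *K15CrePR* or *Lgr5CreER*, induced by mifepristone or tamoxifen, deleted floxed *p53*, with floxed *Ldha* deleted by the same Cre in the null animals, and some were made with the carcinogen DMBA and the promoter TPA instead. Which of these models gave the sequenced tumors is not stated. The mice had a mixed background, and some *Ldha*-null tumors of the study were mosaic, with areas that kept lactate dehydrogenase activity. Squamous carcinoma cells are given as the source in the labels, although RNA was taken from whole fresh tumors and no sorting is described.

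Glutamine is the most abundant free amino acid of blood. It enters cells through exchangers such as Slc1a5 and through sodium-coupled carriers of the Slc38 family, and Slc7a5 gives it back to the outside in exchange for leucine and other large neutral amino acids. Inside the cell it is turned into glutamate, which glutamate dehydrogenase or an aminotransferase turns into alpha-ketoglutarate, an intermediate of the TCA cycle, and glutamine synthetase runs the opposite way and makes glutamine from glutamate and ammonia. The aminotransferases Got1 (cytosol) and Got2 (mitochondria) also carry electrons between the compartments in the malate-aspartate shuttle.

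The tumors differed in tissue content before any glutamine gene was considered. Total counts were 12969508 to 17694201 per tumor. Summed markers of mesenchyme and of leukocytes were lowest in 3 tumors, *Ldha*-null 1, *Ldha*-null 3 and wild-type 5. In that order, the 7 mesenchymal genes summed to 367, 2970 and 4801 FPKM (fragments scaled to gene length and library size) against at least 7420 FPKM in the other 7 tumors, and the 7 measured leukocyte genes to 81.5, 795 and 383 FPKM against at least 1350 FPKM. The 10 epithelial genes summed to 5494, 34673 and 38312 FPKM in the same 3 tumors against at most 3687 FPKM in the other 7, and each of the 10 was detected in every tumor. The 12 skeletal muscle genes held 14.0% of the counts of *Ldha*-null tumor 1, while their share was 0.0268% or less in each of the other 9. *Ldha* RNA itself did not separate the labels, which held 246 to 1882.5 FPKM under the null label and 340 to 2824 FPKM under the wild-type label, and transcript from outside the deleted part would still be counted, so *Ldha* does not check the labels and every direction below is between libraries as labelled. In bulk tumor RNA, fewer cells of a type and less RNA per cell cannot be told apart. The 7 tumors that remain once those 3 are left out were not uniform either, with epithelial sums of 292 to 3687 FPKM and salivary gland sums of 4.38 to 1483 FPKM. Genotype differences of the 9 genes are given over all 10 tumors, without *Ldha*-null tumor 1, and over those 7 tumors.

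By mean FPKM over the 10 tumors, the glutamine synthetase gene *Glul* stood first at 273 FPKM and the glutamate dehydrogenase gene *Glud1* next at 196 FPKM. *Got2* (88.3 FPKM), *Slc38a2* (68.4 FPKM), *Got1* (63.1 FPKM), *Slc1a5* (59.5 FPKM), *Slc7a5* (35.4 FPKM) and *Gpt2* (30.0 FPKM) followed, and *Slc38a1* was far below the rest at 1.88 FPKM. Several neighbours in this order were not clearly separated. *Glul* was above *Glud1* in 6 of 10 tumors, and *Got1* was above *Slc1a5* in only 3 of 10 although its mean was higher, whereas *Gpt2* was above *Slc38a1* in 10 of 10. FPKM is per length, but the length used equalled the one listed in the files for 1 of the 9 genes, *Slc38a2*. With the listed lengths *Glul*, *Glud1* and *Slc38a1* kept their places, at 94.8, 70.5 and 1.78 FPKM, and *Slc38a2* moved up to the third place at 68.4 FPKM.

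The aminotransferase genes *Got1*, *Got2* and *Gpt2* were all above the range of those 7 tumors in *Ldha*-null tumor 1, and the sequences around their start sites are shown. *Glul* was above that range there too, and its window was searched but is not printed. Windows from 250 bases before to 50 bases after the RefSeq start site were at hand for 6 of the 9 genes, *Glud1*, *Glul*, *Got1*, *Got2*, *Gpt2* and *Slc38a2* (build GRCm38.p6, the mm10 assembly). TGATGNAA, the core bound by Atf4 with C/EBP partners in genes of the amino acid response, and CACGTG, the E-box bound by Myc, were searched on both strands, and CACGTG can share its last 2 bases with the first 2 of TGATGNAA. TGATGNAA was in the window of *Got1* alone, starting 102 bases before the start site and read on the opposite strand, and CACGTG was in 0 of the 6 windows. Over 32851 promoter windows of the same length, 3.97% held TGATGNAA and 7.15% held CACGTG. Capitals mark the motif, and each window is written 5′ to 3′ on the strand of its gene, *Got1* at chr19:43524556-43524855 (minus strand), *Got2* at chr8:95888352-95888651 (minus strand) and *Gpt2* at chr8:85492326-85492625 (plus strand).
Got1: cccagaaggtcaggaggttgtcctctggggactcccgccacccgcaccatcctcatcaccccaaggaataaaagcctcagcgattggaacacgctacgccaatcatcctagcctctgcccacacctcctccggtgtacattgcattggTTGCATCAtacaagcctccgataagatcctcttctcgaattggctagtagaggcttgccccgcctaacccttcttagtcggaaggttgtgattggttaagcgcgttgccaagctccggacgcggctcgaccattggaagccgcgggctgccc
Got2: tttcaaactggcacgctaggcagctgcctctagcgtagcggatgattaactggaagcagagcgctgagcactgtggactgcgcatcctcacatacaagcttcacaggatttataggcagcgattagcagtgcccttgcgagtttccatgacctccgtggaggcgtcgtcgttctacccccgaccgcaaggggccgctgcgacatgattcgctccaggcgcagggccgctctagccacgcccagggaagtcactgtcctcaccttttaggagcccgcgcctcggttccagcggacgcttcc
Gpt2: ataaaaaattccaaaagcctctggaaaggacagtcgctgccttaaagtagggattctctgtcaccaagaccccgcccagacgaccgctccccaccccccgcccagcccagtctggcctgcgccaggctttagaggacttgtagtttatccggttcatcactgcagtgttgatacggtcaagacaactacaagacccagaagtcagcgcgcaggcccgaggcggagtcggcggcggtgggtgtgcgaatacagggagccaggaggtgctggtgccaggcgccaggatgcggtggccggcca

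By the quasi-likelihood test of edgeR with Benjamini-Hochberg adjustment (threshold 0.05), 0 of the 9 glutamine genes and 0 of 15176 tested genes (0%) passed. The unadjusted p was under 0.05 for 601 genes (3.96%), higher in the null libraries for 541 of them (3.56%), and for 1 of the 9, *Gpt2*, which was also higher. DESeq2 called 1 gene, *G0s2*, an inhibitor of fat breakdown that was named here after its values were seen, and 489 at an unadjusted p under 0.05. Groups that did not overlap in log2 CPM were found for 28 genes (0.185%) and for 0 of the 9. The fitted change was positive for 6 of the 9 genes against 52.8% of all genes. Without *Ldha*-null tumor 1 it was positive for 3 of the 9 against 47.7% of all genes. All 9 genes passed the filter on low counts.

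**Figure D1:**
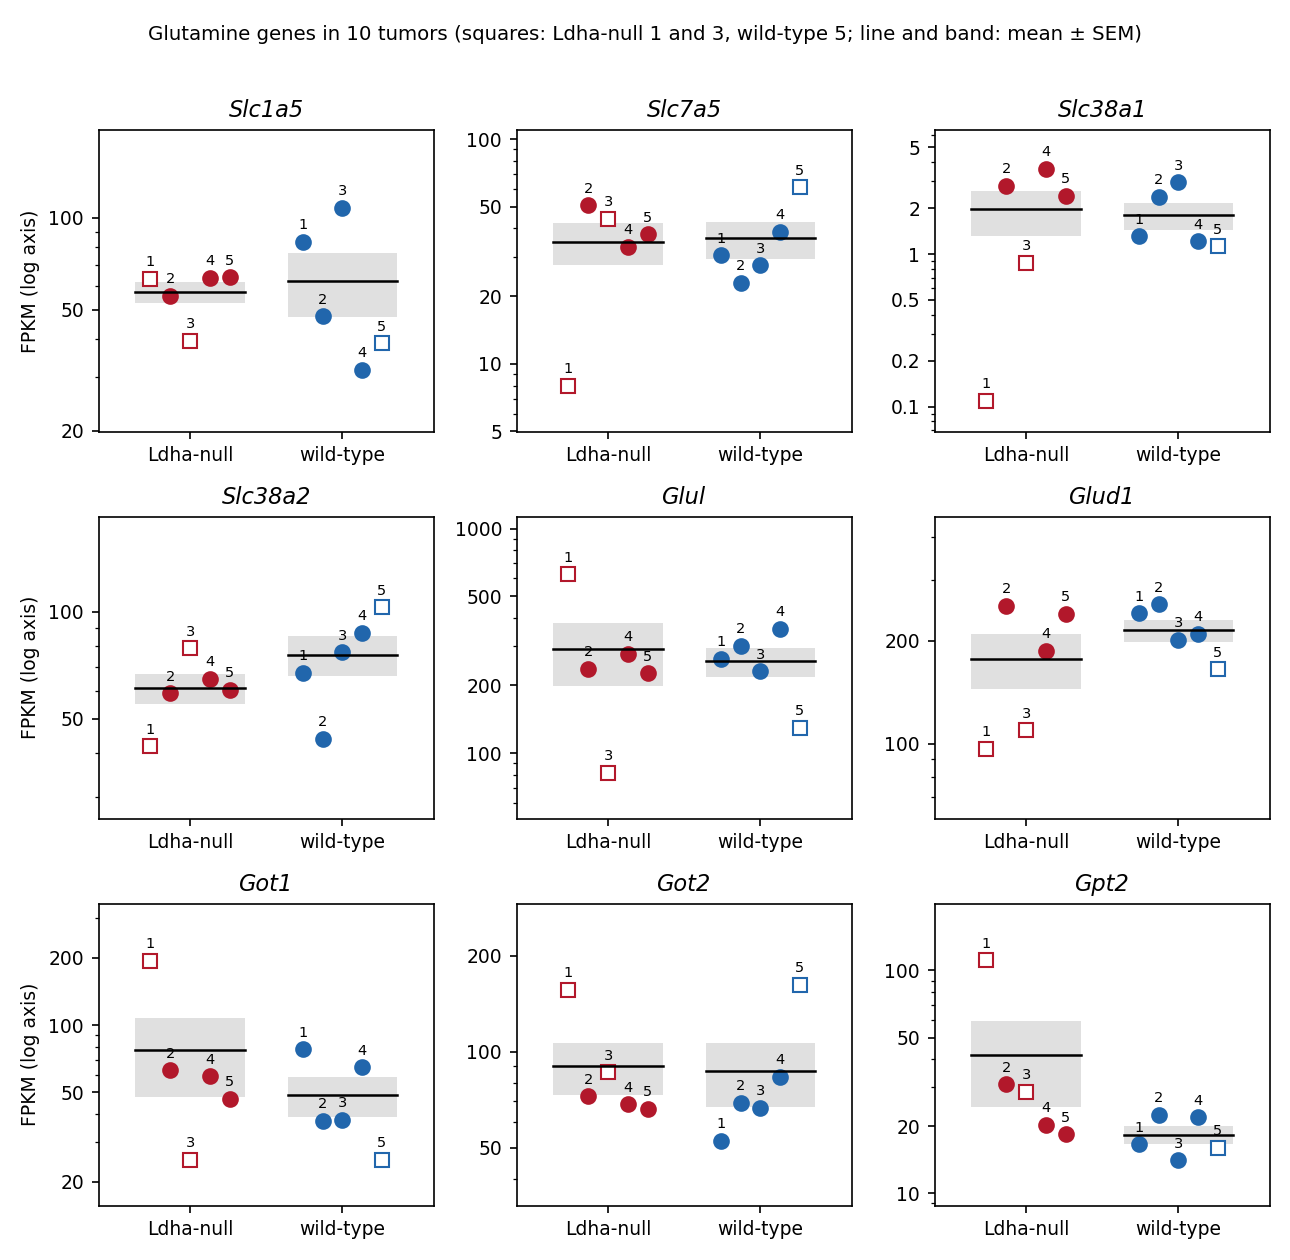
RNA levels of the 9 glutamine genes in each tumor, in FPKM on log axes whose range differs between panels, with the tumor number beside each point, filled circles for the 7 tumors with more mesenchymal and leukocyte marker RNA, open squares for *Ldha*-null 1, *Ldha*-null 3 and wild-type 5, and a line and band for the mean ± SEM of all 5 tumors of a genotype. The genotypes overlap in every panel, and the squares hold the highest level of *Slc7a5*, *Slc38a2*, *Glul*, *Got1*, *Got2* and *Gpt2*.

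Among the transporters, *Slc1a5* (ENSMUSG00000001918, mm10 chr7:16781346-16798274, plus strand) encodes the neutral amino acid exchanger that the study names as the route of glutamine into these cells. It stood at 63.2, 55.5, 39.5, 63.6 and 63.8 FPKM across *Ldha*-null tumors 1 to 5, and wild-type tumors 1 to 5 had 83.7, 47.6, 108, 31.8 and 38.7 FPKM. The wild-type tumors held both the highest level and the lowest level, so the null tumors lay wholly inside the wild-type range. The means were 57.1 ± 4.66 FPKM in *Ldha*-null and 62.0 ± 14.6 FPKM in the wild-type group (mean ± SEM of 5 tumors each). The fitted log2 fold change over all tumors, null over wild type, was 0.13. Its 95% interval of -0.69 to 0.94 leaves out a doubling and a halving. The change was -0.16 (-0.90 to 0.57) if *Ldha*-null tumor 1 is left out. Over the 7 tumors it was -0.21, with an interval of -1.05 to 0.62 that includes a halving. On the FPKM scale *Ldha*-null tumor 1 was in the middle of the 7 tumors for this gene, but after division by its TMM factor (the edgeR scaling of library composition, 0.580 in that tumor and at least 0.882 in the others) it was above all 7.

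*Slc7a5* (ENSMUSG00000040010, mm10 chr8:121881150-121907694, minus strand) encodes the light chain of the exchanger that trades glutamine for leucine. Its level was 7.96, 50.8, 44.1, 33.2 and 37.7 FPKM across *Ldha*-null tumors 1 to 5, and wild-type tumors 1 to 5 had 30.4, 22.9, 27.4, 38.8 and 61.0 FPKM. The muscle-rich *Ldha*-null tumor 1 was the lowest of all 10 and wild-type tumor 5 the highest, with the others overlapping between them. Means were 34.8 ± 7.33 FPKM and 36.1 ± 6.75 FPKM (mean ± SEM of 5 tumors each), and the log2 fold change was -0.026 (95% interval -0.90 to 0.85). It turned to 0.17 without *Ldha*-null tumor 1 and 0.37 over the 7 tumors (-0.22 to 0.95), where the 3 null tumors averaged 40.6 FPKM and the 4 wild-type tumors 29.9 FPKM.

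*Slc38a1* (ENSMUSG00000023169, mm10 chr15:96571418-96642913, minus strand) and *Slc38a2* (ENSMUSG00000022462, mm10 chr15:96687394-96699698, minus strand) encode sodium-coupled glutamine carriers and lie next to each other on the minus strand of chromosome 15, with 44480 bases between them. *Slc38a1* was at 0.11, 2.81, 0.88, 3.62 and 2.40 FPKM across *Ldha*-null tumors 1 to 5, and wild-type tumors 1 to 5 had 1.31, 2.38, 2.94, 1.21 and 1.12 FPKM. The value of *Ldha*-null tumor 1 rests on 14 counts and the highest on 442. Its log2 fold change was 0.11 (95% interval -1.22 to 1.44), 0.40 without *Ldha*-null tumor 1 and 0.53 over the 7 tumors (-0.26 to 1.33).

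*Slc38a2*, the more abundant of the pair, which amino acid shortage is known to induce, was at 41.8, 59.0, 79.0, 64.9 and 60.4 FPKM across *Ldha*-null tumors 1 to 5, and wild-type tumors 1 to 5 had 67.3, 43.9, 76.9, 87.4 and 103 FPKM. Its range over all 10 tumors, 2.46-fold, was the narrowest of the 9 genes. Means were 61.0 ± 5.96 FPKM and 75.7 ± 9.92 FPKM (mean ± SEM of 5 tumors each), with a fitted log2 change of -0.16 (95% interval -0.83 to 0.51), -0.20 without *Ldha*-null tumor 1 and -0.24 over the 7 tumors. *Slc38a1* stood at 0.0026 of the FPKM of its neighbour in *Ldha*-null tumor 1, and at 0.0139 to 0.0558 of it in the 7 tumors.

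*Glul* (ENSMUSG00000026473, mm10 chr1:153899944-153909723, plus strand) encodes glutamine synthetase, the enzyme that makes glutamine. Its level was 627, 237, 81.5, 277 and 226 FPKM across *Ldha*-null tumors 1 to 5, and wild-type tumors 1 to 5 had 263, 301, 231, 359 and 130 FPKM. The highest and the lowest tumor were both null, *Ldha*-null tumors 1 and 3, and the 7 tumors lay within a 1.59-fold range. Means were 290 ± 90.7 FPKM and 257 ± 38.2 FPKM (mean ± SEM of 5 tumors each), and the log2 fold change was 0.61 (95% interval -0.71 to 1.92). It was -0.37 without *Ldha*-null tumor 1 and -0.30 over the 7 tumors (-0.82 to 0.23), so that the direction rested on that tumor. *Ldha*-null tumor 1 was 2.39 times the median of the 7 tumors, while *Ldha*-null tumor 3 and wild-type tumor 5, the tumors with the most epithelial marker RNA, were at 0.310 and 0.493 of it. *Ldha*-null tumor 1 had the most skeletal muscle marker RNA. The part of the muscle and epithelial markers in the level of *Glul* was not tested.

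*Glud1* (ENSMUSG00000021794, mm10 chr14:34310727-34345144, plus strand) encodes the mitochondrial glutamate dehydrogenase. It stood at 96.7, 253, 109, 187 and 239 FPKM across *Ldha*-null tumors 1 to 5, and wild-type tumors 1 to 5 had 241, 255, 201, 210 and 165 FPKM. It was the steadiest of the 9 genes over the 7 tumors, with a coefficient of variation of 11.9% and a 1.37-fold range, and *Ldha*-null 1, *Ldha*-null 3 and wild-type 5 all fell below that range by FPKM. After division by the TMM factors wild-type tumor 5 was within the range and *Ldha*-null tumor 3 was the lowest. Means were 177 ± 32.2 FPKM and 214 ± 15.8 FPKM (mean ± SEM of 5 tumors each), and the log2 fold change was -0.18 (95% interval -0.66 to 0.31), with -0.16 without *Ldha*-null tumor 1 and -0.073 over the 7 tumors. Over all tumors, a change of 2-fold in either direction lay outside the interval of *Glud1*, as it did for *Slc1a5*, *Slc7a5* and *Slc38a2*. It lay inside the interval of the other 5 genes in at least 1 direction. Over the 7 tumors the interval of *Slc1a5* (-1.05 to 0.62) did include a 2-fold drop. Some other fits did not keep that bound either. The interval was -0.53 to 1.16 for *Slc7a5* without wild-type tumor 5 and -0.37 to 1.19 for *Slc1a5* without wild-type tumor 3. For *Slc38a2* without *Ldha*-null tumor 3 it was -1.01 to 0.39. With the linear model of limma on log2(FPKM + 1), *Glud1* had -1.05 to 0.32.

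*Got1* (ENSMUSG00000025190, mm10 chr19:43499752-43524605, minus strand) encodes the cytosolic aspartate aminotransferase. Its level was 194, 63.0, 25.0, 59.1 and 46.8 FPKM across *Ldha*-null tumors 1 to 5, and wild-type tumors 1 to 5 had 78.2, 37.4, 37.8, 64.7 and 25.0 FPKM. *Ldha*-null tumor 1 was 3.28 times the median of the 7 tumors, and *Ldha*-null tumor 3 and wild-type tumor 5 were lowest of all, both at 0.42 of that median. Means were 77.6 ± 29.8 FPKM and 48.6 ± 9.84 FPKM (mean ± SEM of 5 tumors each). The log2 fold change of 1.18 (95% interval -0.29 to 2.64) was -0.037 without *Ldha*-null tumor 1 and -0.025 over the 7 tumors (-0.73 to 0.68), and the exact permutation p over all 10 was 0.5.

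*Got2* (ENSMUSG00000031672, mm10 chr8:95864134-95888547, minus strand) encodes the mitochondrial aspartate aminotransferase. It stood at 156, 72.4, 86.3, 68.4 and 66.3 FPKM across *Ldha*-null tumors 1 to 5, and wild-type tumors 1 to 5 had 52.6, 69.0, 66.6, 83.4 and 162 FPKM. *Ldha*-null 1, *Ldha*-null 3 and wild-type 5 were the 3 highest, and the 7 tumors lay within 1.58-fold. Means were 89.9 ± 16.9 FPKM and 86.7 ± 19.4 FPKM (mean ± SEM of 5 tumors each), with a fitted log2 change of 0.38 (95% interval -0.75 to 1.52), -0.26 without *Ldha*-null tumor 1 and -0.050 over the 7 tumors. The paired enzymes of the shuttle parted in the tumors of high epithelial marker RNA. *Got1* stood at 0.290 of *Got2* in *Ldha*-null tumor 3 and at 0.154 in wild-type tumor 5, both in FPKM, against 0.542 to 1.49 in the 7 tumors and 1.24 in *Ldha*-null tumor 1.

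*Gpt2* (ENSMUSG00000031700, mm10 chr8:85492576-85527560, plus strand) encodes the mitochondrial alanine aminotransferase, which passes the amino group of glutamate to pyruvate and so touches the metabolite that lactate dehydrogenase uses. Its level was 111, 30.9, 28.6, 20.3 and 18.4 FPKM across *Ldha*-null tumors 1 to 5, and wild-type tumors 1 to 5 had 16.6, 22.6, 14.1, 22.0 and 16.0 FPKM. The highest 3 tumors were all null and the lowest 3 all wild type, with *Ldha*-null tumors 4 and 5 inside the wild-type range. Means were 41.8 ± 17.4 FPKM and 18.3 ± 1.69 FPKM (mean ± SEM of 5 tumors each), and 24.6 ± 3.05 FPKM in the 4 null tumors without tumor 1. The log2 fold change was 1.73 (SE 0.67, 95% interval 0.25 to 3.20), with an unadjusted p of 0.0257 and an adjusted p of 0.999 by edgeR, and the exact permutation test of log2 CPM gave p = 0.0873. Without *Ldha*-null tumor 1 the change was 0.45 (95% interval -0.15 to 1.05) at an unadjusted edgeR p of 0.124, and over the 7 tumors it was 0.24 (-0.39 to 0.87). It stayed positive in all 19 alternative fits, and in all 19 of them adjusted p-values of all 9 genes were at least 0.705 in the tool of that fit. In *Ldha*-null tumor 1, *Gpt2* was 5.45 times the median of the 7 tumors and muscle markers took 14.0% of the counts. That is 1 tumor, and the part of the muscle markers in its *Gpt2* level was not tested.

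**Figure D2:**
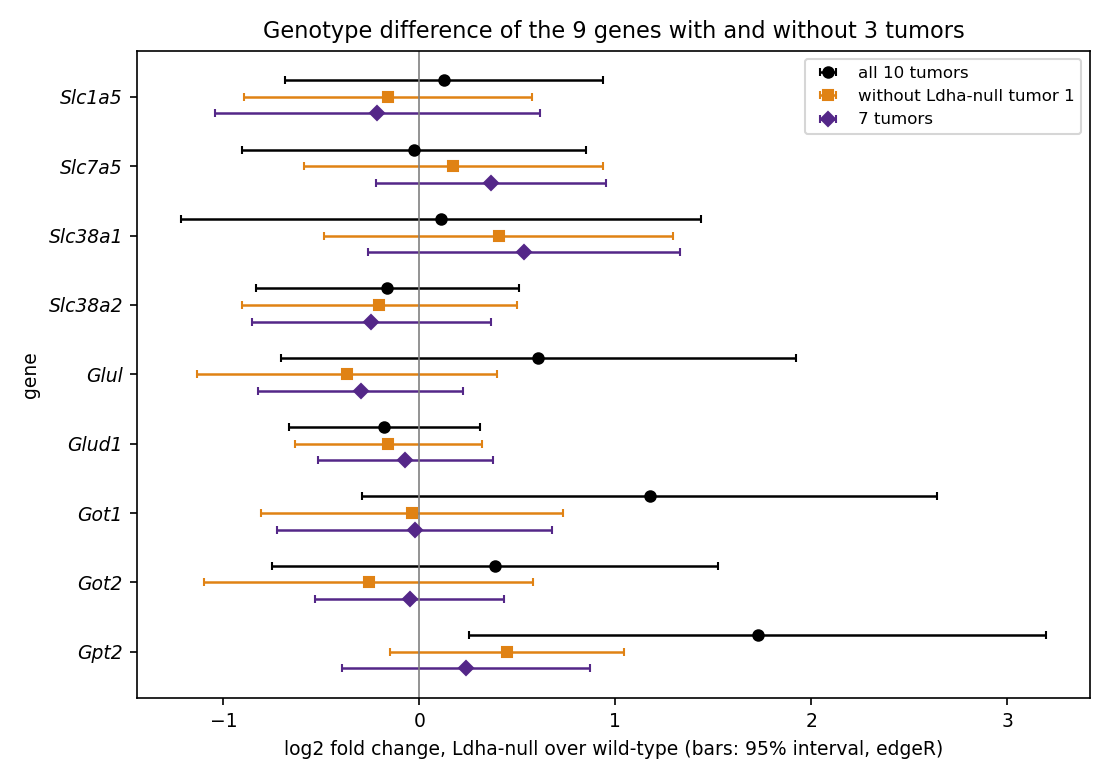
Log2 fold change of each gene, libraries labelled *Ldha*-null over wild type, from edgeR with its 95% interval, over all 10 tumors (circles), without *Ldha*-null tumor 1 (squares) and over the 7 tumors other than *Ldha*-null 1, *Ldha*-null 3 and wild-type 5 (diamonds). *Got1*, *Glul*, *Got2*, *Gpt2* and *Slc1a5* move left most once *Ldha*-null tumor 1 is out. *Gpt2* goes from 1.73 to 0.45 and *Slc1a5* from 0.13 to -0.16. The value 0 is inside every interval but that of *Gpt2* over all 10 tumors.

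In each of the 3 tumors set apart by their markers, glutamine genes lay on both sides of the range of the 7 tumors. The share of all genes outside that range was not computed, so the counts below only describe these genes. By FPKM, *Ldha*-null tumor 1 was above the range of the 7 tumors for *Glul*, *Got1*, *Got2* and *Gpt2*, below it for *Slc7a5*, *Slc38a1*, *Slc38a2* and *Glud1*, and within it for *Slc1a5*. *Ldha*-null tumor 3 was above that range for 1 gene (*Got2*) and below it for 4, *Slc38a1*, *Glul*, *Glud1* and *Got1*. Wild-type tumor 5 was below it for the same 4 and above it for 3, *Slc7a5*, *Slc38a2* and *Got2*. Scaled by TMM, the counts above, below and within were 5, 3 and 1 for *Ldha*-null tumor 1, 4, 4 and 1 for *Ldha*-null tumor 3 and 3, 2 and 4 for wild-type tumor 5. *Glul* and *Got1* high in *Ldha*-null tumor 1 and low in the other 2, and *Got2* high in all 3, held on both scales.

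**Figure D3:**
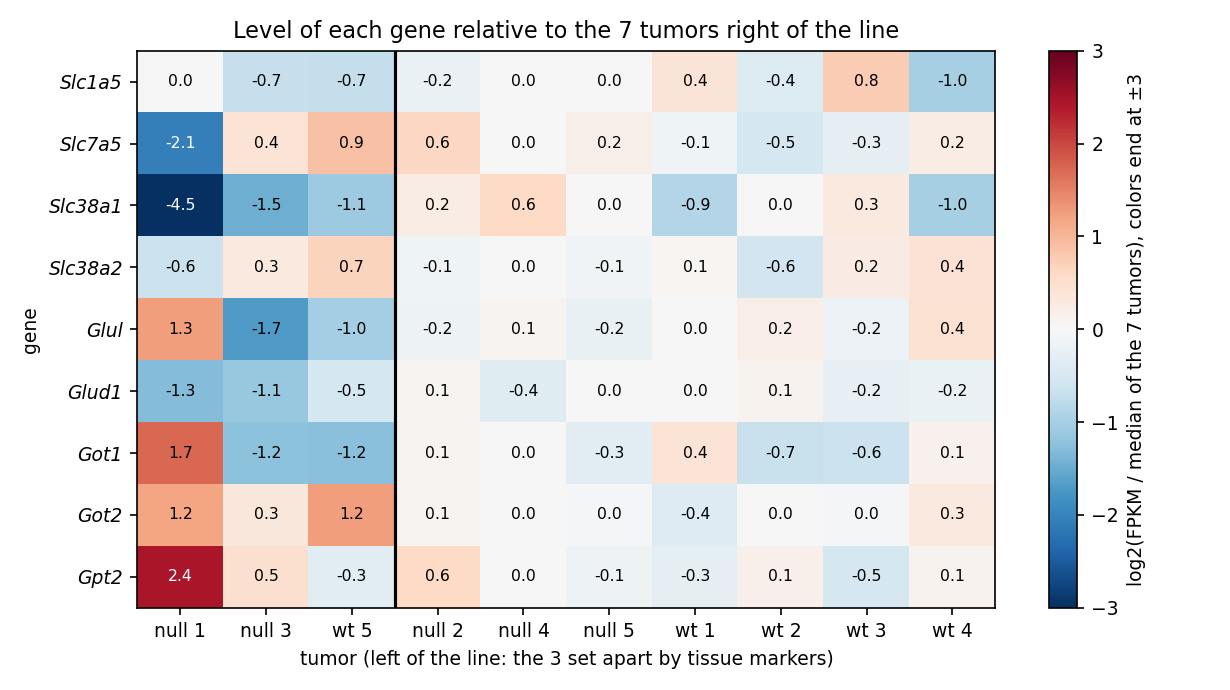
Level of each gene in each tumor as the log2 ratio of its FPKM to the median of the 7 tumors right of the line, red for higher and blue for lower, with colors that end at ±3. *Ldha*-null tumor 1 runs from -4.46 for *Slc38a1* to 2.45 for *Gpt2*, and *Ldha*-null tumor 3 and wild-type tumor 5 have alike signs for 8 of the 9 genes. The share of all genes with alike signs in these tumors was not computed, so that count is descriptive only.

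Within the 7 tumors, no correlation between 2 of the 9 genes passed adjustment. So few tumors cannot tell weaker relations from none, so whether some of the genes rose and fell together was not settled. Of the 36 pairs, 22 had a positive and 14 a negative Pearson's r of log2 CPM, from -0.69 to 0.64 with a median of 0.056. In exact permutation tests over 5040 pairings, 0 pairs had an unadjusted p under 0.05 for r (smallest 0.0861), and the smallest p adjusted over the 36 pairs by Benjamini-Hochberg was 0.723. By Spearman's rho 3 pairs had an unadjusted exact p under 0.05, where 1.8 of 36 would at that threshold, and the smallest adjusted p was 0.429. These were *Gpt2* and *Slc1a5* (rho -0.857, r -0.69), *Got2* and *Gpt2* (rho 0.857, r 0.58) and *Got2* and *Slc1a5* (rho -0.786, r -0.66). Without the 2 tumors farthest from the median of the gene on the x axis, r was -0.85, 0.69 and -0.052 in that order, so the last relation rested on those tumors. The aspartate aminotransferase pair *Got1* and *Got2* had an r of 0.015, and the neighbours *Slc38a1* and *Slc38a2* one of -0.33. A correlation within a genotype was not computed, since only 3 null and 4 wild-type tumors remain.

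**Figure D4:**
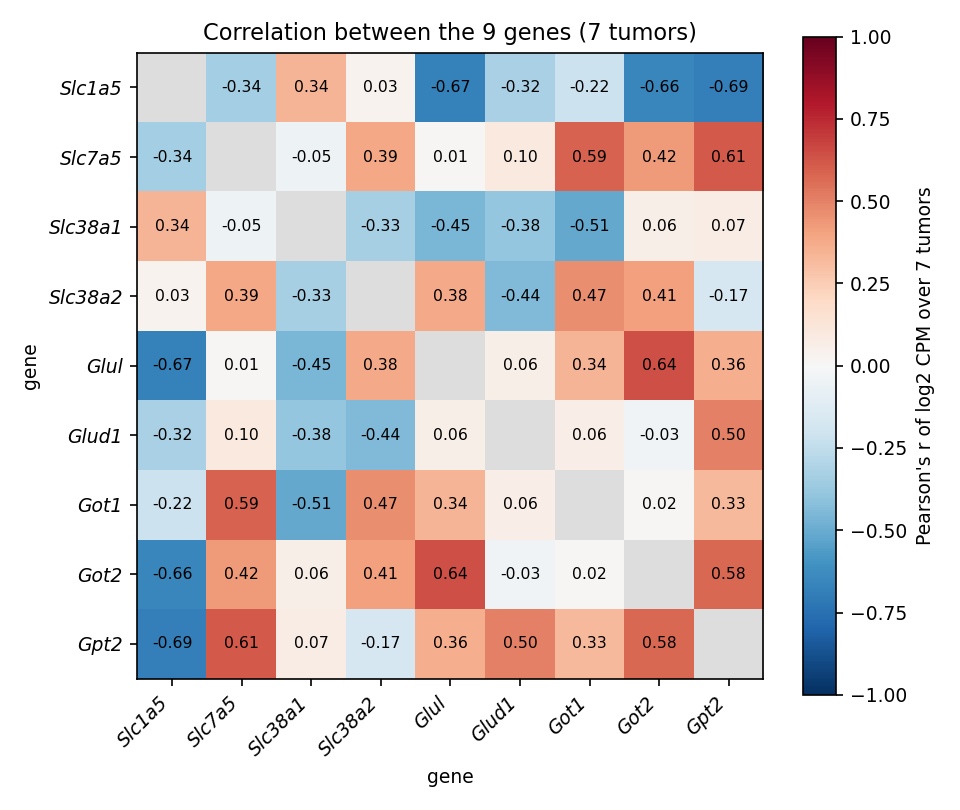
Pearson's r of log2 CPM between each pair of the 9 genes over the 7 tumors, red for positive and blue for negative, with the genes in the order transporters, synthetase, dehydrogenase and aminotransferases on both axes. Values lie between -0.69 and 0.64. The *Slc1a5* row is negative against *Slc7a5*, *Glul*, *Glud1*, *Got1*, *Got2* and *Gpt2*, and positive against *Slc38a1* and *Slc38a2*.

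The genes most like each of the 9 were looked for among 15175 other genes over the 7 tumors, so high values were selected for and carry no test. The highest Pearson's r of log2 CPM were 0.99 for *Glud1* with *AW209491*, 0.99 for *Got1* with *Inpp5a*, 0.99 for *Gpt2* with *Tmem238*, 0.99 for *Slc7a5* with *Gm14295*, 0.99 for *Got2* with *Mrgprb2*, 0.98 for *Glul* with *Cacfd1*, 0.98 for *Slc38a1* with *Pdgfb*, 0.98 for *Slc38a2* with *Foxo1* and 0.96 for *Slc1a5* with *Med8*. The next closest 2 genes were *Pkn2* and *Crot* for *Glud1*, *Slc6a8* and *Nrbp1* for *Got1*, and *Eva1a* and *Myeov2* for *Glul*. Within each tumor all genes share the same scaling, and none of these genes is another of the 9.

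The remaining genes of the pathway were read as 5 lists, 72 genes in all, each measured and 60 of them tested. None of the 60 passed. An unadjusted edgeR p under 0.05 was found for 4 of the 60 with a higher level in libraries labelled *Ldha*-null, where 3.56% of all genes had one, and for 0 with a lower level, where 0.395% of all genes had one. The median log2 fold change was 0.028 beside 0.025 over all tested genes. Without *Ldha*-null tumor 1 the median was -0.097 beside -0.015, and 0 of the 60 had an unadjusted edgeR p under 0.05, against 1.25% of all genes. Over the 7 tumors the median was -0.067 beside -0.0020, and 1 of the 60 had such a p, against 1.59% of all genes. The 12 tested enzymes that take the amide nitrogen of glutamine had a median of -0.12 and 9 of 12 negative values, the 25 enzymes of glutamate, proline, aspartate and alanine one of 0.34 and 18 positive values, which became -0.034 and 10 without *Ldha*-null tumor 1. The 13 other glutamine and neutral amino acid transporters had a median of -0.15 and the 8 glutamate and aspartate transporters one of 0.47, or -0.32 and -0.013 without that tumor.

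*Gls2*, whose enzyme makes glutamate from glutamine and is best known from liver, averaged 1.85 ± 0.55 FPKM in the null group and 2.21 ± 0.81 FPKM in the wild-type group (mean ± SEM of 5 tumors each). Its log2 fold change was -0.10, and the 95% interval ran from -1.44 to 1.24. It was 0.65 without wild-type tumor 5, -0.64 without *Ldha*-null tumor 3, and -0.11 over the 7 tumors, so its direction rested on single tumors. *Gls2* was higher than in any of the 7 tumors in *Ldha*-null 3 (3.99 FPKM) and wild-type 5 (5.41 FPKM), the tumors with the most epithelial marker RNA, whose part in these levels was not tested.

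*Slc3a2*, the heavy chain that Slc7a5 needs to reach the membrane, averaged 55.5 ± 12.3 FPKM in the null group and 79.4 ± 8.38 FPKM in the wild-type group (mean ± SEM of 5 tumors each), with a fitted log2 change of -0.47 (95% interval -1.07 to 0.12) and -0.21 over the 7 tumors. It stood at 18.8 and 36.1 FPKM in *Ldha*-null tumors 1 and 3, below all others. *Slc7a5* was at 0.275 to 0.828 of *Slc3a2* by FPKM in the 7 tumors and at 1.22 in *Ldha*-null tumor 3. For the exchanger gene *Slc7a6* the fitted log2 change, null over wild type, was -0.72 (interval -1.53 to 0.09), -0.31 without wild-type tumor 5, where it stood at 22.9 FPKM, and -0.067 over the 7 tumors. *Slc7a11*, which exports glutamate for cystine, had a log2 fold change of 1.35 (interval -0.42 to 3.11), with 20.4 FPKM in *Ldha*-null tumor 3 against at most 5.71 FPKM elsewhere. Its change was -0.017 without *Ldha*-null tumor 3 and 0.11 over the 7 tumors. The asparagine synthetase gene *Asns* (log2 fold change -0.10), *Myc* (-0.43) and *Atf4* (0.19), whose products drive glutamine genes in many cells, had intervals that include 0. Over the 7 tumors their changes were -0.16, -0.14 and -0.14.

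Of the 6 pathway genes with the smallest p among those not yet described, 4 lost most or all of their change without *Ldha*-null tumor 1. *Slc38a3*, a glutamine carrier of liver, kidney and muscle, was at 41.4 FPKM there and at most 0.81 FPKM elsewhere, and its log2 fold change of 5.86 became -0.32 without that tumor. The aspartate-glutamate carrier gene *Slc25a12* was at 187 FPKM there and at most 24.02 FPKM elsewhere (2.34, then 0.21), the malate dehydrogenase gene *Mdh1* at 579 FPKM and at most 194 FPKM (1.36, then 0.24), and *Aldh4a1* of proline breakdown at 12.7 FPKM and at most 4.27 FPKM (1.31, then 0.31). *Abat*, the GABA aminotransferase gene, averaged 0.93 ± 0.18 FPKM in the null group and 0.38 ± 0.10 FPKM in the wild-type group (mean ± SEM of 5 tumors each), with a log2 fold change of 1.56 (unadjusted edgeR p 0.0249, exact permutation p 0.0317) 1.04 without *Ldha*-null tumor 1 and 1.08 over the 7 tumors, on 4 to 46 counts per tumor. *Gclm*, a subunit of the enzyme that uses glutamate for glutathione, averaged 34.8 ± 6.07 and 61.6 ± 14.0 FPKM, with a fitted log2 change of -0.73 (95% interval -1.56 to 0.10) and, over the 7 tumors, of -0.53 (-1.06 to -0.01). Without wild-type tumor 5, where it stood at 115 FPKM, the change was -0.30. Its edgeR adjusted p was 0.999 over all 10 tumors. Over the 7 tumors its edgeR p was 0.0468 unadjusted and 0.99998 adjusted. *Gclm* was the 1 of the 60 pathway genes with such an unadjusted p there, against 1.59% of all genes.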

How the data were processed

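RNA-seq was done on 10 tumors, 5 labelled LDHA-/- and 5 Wild type, grouped by the genotype label. The counts were made by the authors from reads aligned to mm10 with TopHat2 (version not given in the sources used here) and assigned to genes by HTSeq in its union mode. They were deposited unscaled. Base calling had used CASAVA 1.8. The FPKM values were computed by the authors from these counts and a gene length that equals the listed length within 1% for 49.1% of 25260 counted genes. Columns that could not be mapped to a tumor numbered 0.

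Levels and ratios are deposited FPKM. Genotype differences were fitted on the deposited counts of all genes in R 4.3.3 with edgeR 4.0.16 (TMM, filterByExpr at 10 counts and 15 in total, quasi-likelihood test, no covariate, Benjamini-Hochberg adjustment over 15176 genes, threshold 0.05), and p-values measure the spread between these tumors. The 95% intervals use the standard error of that fit. Exact two-sided permutation tests used log2 CPM (prior count 2) over 252 assignments of tumors, where 2 of 252 (0.00794) is the smallest p. The biological coefficient of variation was 63.4%. Counting error is small beside it, except where counts are low, and the reads carry no molecular identifiers. The edgeR script was tested on simulated data.

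The 9 genes, the pathway and marker lists and the rule for naming genes were chosen with earlier results of these data known. The rule named the 9 genes, *Gls2*, *Slc3a2*, *Slc7a6*, *Slc7a11*, *Asns*, *Myc* and *Atf4* whatever their values, the 6 other pathway genes with the smallest p, and the 3 genes most like each member. The 3 tumors left out of the correlations were also set apart by those earlier results. Alternatives were DESeq2 1.42.0, RLE and upper-quartile factors, no filter, limma 3.58.1 on log2(FPKM + 1) and log2(FPKM + 0.1), limma-voom with sample quality weights, the tumor number as a block, and leaving out tumors. For the 9 genes any change of sign counted as a reversal, and for other pathway genes only that of a called value. Whether the libraries kept strand is not stated. An antisense gene overlapping *Glul* held 229 counts in all against 43399, one overlapping *Slc7a5* held 0, and a *Got2* pseudogene held 1. Promoter windows are from RefSeq (GRCm38.p6). Markers of endothelium, adipocytes and salivary gland were also summed. Adipocyte sums were 1968, 1008 and 954 FPKM in the 3 tumors set apart and at most 202 FPKM in the other 7, endothelial sums were 23.7 to 57.5 FPKM over all 10, and salivary sums were 4.38 to 1483 FPKM with *Smr3a* at 0 in all 10. Isoforms and proteins were not analysed here, and 1 gene named by the rule and 1 allele of the mice are not reported here.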

Additional observations from a re-analysis of the deposited data

Results flagged for a closer look

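The highest or lowest tumor was compared with the next in 46 groups of 5 tumors (23 named genes in each genotype). In 5 groups the gap exceeded 0.71 of the range of the group on the log2 CPM scale (Dixon's 95% value). For independent groups not picked by their values, chance would give about 1 in 20, or 2.3 of 46. That rate does not hold here, because the groups share the same tumors. Some genes, *Slc25a12* and *Aldh4a1* among them, were also named for their small genotype p. The count of 5 is therefore descriptive only. Of the 5 flagged groups, 4 had *Ldha*-null tumor 1 as the highest: *Got1* at 193.9 FPKM, *Slc1a5* at 63.2 FPKM, *Slc25a12* at 186.6 FPKM and *Aldh4a1* at 12.7 FPKM. The *Slc1a5* value stands apart only after TMM scaling, since *Ldha*-null tumors 4 and 5 were at 63.6 and 63.8 FPKM. The other was wild-type tumor 5 for *Gls2*, at 5.41 FPKM. Skeletal muscle genes took 14.0% of the counts of *Ldha*-null tumor 1, and epithelial markers were highest in wild-type tumor 5. Their part in these values was not tested.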

How the results depend on the processing

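The adjusted p stayed over the threshold for all 9 genes in the 19 alternative fits and for all 60 tested pathway genes in 18 of them. DESeq2 gave no adjusted p for 8 of the 60, *Slc38a3*, *Slc25a12* and *Aldh4a1* among them, and the other 52 stayed over it there. For *Slc38a3*, *Slc25a12* and *Aldh4a1* DESeq2 gave no unadjusted p either, so it did not test them. The count over all genes went from 0 to 1 with DESeq2 and was 0 in the other 18. Of 171 alternative values of the 9 genes, 146 kept their direction and 25 changed sign, 12 of them on leaving out 1 tumor. By alternative, the changed signs were, for *Glul*, -0.033 and -0.034 with limma on log2(FPKM + 1) and log2(FPKM + 0.1), -0.28 with limma-voom and -0.30 over the 7 tumors; for *Got1* -0.025 over the 7 tumors; for *Got2* -0.013 with limma-voom and -0.050 over the 7; for *Slc1a5* -0.21 over the 7; for *Slc7a5* 0.25 with limma-voom and 0.37 over the 7; and for *Slc38a1* -0.043 on log2(FPKM + 1) and -0.33 on log2(FPKM + 0.1). The cause was not tested. Leaving out 1 tumor at a time gave -0.37 to 0.85 for *Glul*, -0.037 to 1.41 for *Got1*, -0.26 to 0.78 for *Got2*, -0.16 to 0.41 for *Slc1a5*, -0.22 to 0.40 for *Slc38a1*, -0.32 to 0.016 for *Slc38a2*, -0.20 to 0.31 for *Slc7a5* and 0.45 to 1.97 for *Gpt2*, and 0 calls in each fit. With limma on log2(FPKM + 1) and log2(FPKM + 0.1), which changed the scaling and the model together, the median of all genes was -0.10 and -0.14, against 0.025, and with the first of them 36.5% of the genes were positive, against 52.8%. Among 14 named pathway genes, 14 of 266 values in 6 genes changed sign. With the listed gene length mean FPKM was 94.8 for *Glul*, 70.5 for *Glud1*, 26.4 for *Slc1a5* and 14.5 for *Slc7a5*.

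Correlations of same-numbered deviations between the genotypes were -0.045, 0.064, -0.27, 0.55 and -0.51, and 1 of 5 null tumors correlated best with its own number. Tissue content also differed between tumors, so these values cannot show whether tumors were paired by litter or batch. As a replicate block the tumor numbers gave 0 calls, 120 genes at an unadjusted edgeR p under 0.05 against 601, and -0.24 for *Slc38a1*.

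No alternative brought an adjusted correlation of the 36 pairs under 0.05. With 5 tumors a group, the 95% intervals of *Gpt2*, *Got1*, *Got2*, *Glul* and *Slc38a1* include changes over 2-fold, and *Slc38a1* and *Abat* rest on as few as 14 and 4 counts.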
